A study of Homo sapiens with 4 samples.

Results

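Boundary regions are the stretches that lie between called domains in a Hi-C map, where the end of one domain and the start of the next do not meet. The members were all rows deposited as boundaries on chromosomes 1 to 22, 2313 of the 2439 boundary rows on 24 chromosomes. They were sorted by length into classes of 80 kb, 120 kb, 160 kb and 200 kb or more, with 40 kb as the bin size. The 4 libraries came from H1, an established line of human pluripotent stem cells (hPSCs) grown in mTeSR1 on Matrigel. Cells received lentiviral shRNA packaged in 293T cells, against luciferase in the control (shLUC, 2 libraries) or against HNRNPU (shHNRNPU, 2 libraries), and were selected with puromycin. Both groups thus shared the virus and the drug. Chromatin was fixed with formaldehyde and cut with HindIII. The extent of the knockdown and the time after infection were not given in the sources used here, and the files held no measure of HNRNPU.

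Chromosomes fold into domains, within which loci contact each other more often than they contact loci outside. The cohesin complex extrudes loops that are held at sites bound by CTCF, and domain borders often lie at such sites and at active gene starts. HNRNPU (also called SAF-A) is an abundant nuclear RNA-binding protein that associates with chromatin. Where a caller finds 2 domains that touch, the border is a single point, here called a flush border. Boundary regions here are stretches of at least 2 bins without a called domain, and in some places several such rows touch. The rule by which the caller sets them is not given.

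The promoters below show the sequence around gene starts that lay in a boundary region of all 4 libraries. They are RefSeq promoters on GRCh38.p14, from 250 bases before the gene start to 50 after it, written 5′ to 3′ on the strand of the gene. DEPDC1 (chr1:68497033-68497332, minus strand) and TRIM25, an E3 ubiquitin ligase of antiviral signalling (chr17:56914000-56914299, minus strand), were the 2 of 27 such promoters with a match to a CTCF-like core (the letters CCA, 2 free bases, AG, 2 free bases and GGC), searched on both strands. Capitals mark the match.
DEPDC1: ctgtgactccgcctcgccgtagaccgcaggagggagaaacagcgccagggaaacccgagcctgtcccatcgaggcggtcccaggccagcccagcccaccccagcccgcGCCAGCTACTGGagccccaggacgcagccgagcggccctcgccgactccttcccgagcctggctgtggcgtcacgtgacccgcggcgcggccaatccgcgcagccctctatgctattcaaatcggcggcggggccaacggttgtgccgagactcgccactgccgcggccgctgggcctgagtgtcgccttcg
TRIM25: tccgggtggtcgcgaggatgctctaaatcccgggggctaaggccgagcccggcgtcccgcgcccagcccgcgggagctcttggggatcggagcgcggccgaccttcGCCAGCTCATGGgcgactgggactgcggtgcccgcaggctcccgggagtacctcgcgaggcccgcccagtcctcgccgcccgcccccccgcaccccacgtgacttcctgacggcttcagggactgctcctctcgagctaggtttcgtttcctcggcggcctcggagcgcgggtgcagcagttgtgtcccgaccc
The match began at base 109 in DEPDC1 and at base 107 in TRIM25, and both read on the strand opposite to the gene. The core was found in 411 of all 15101 promoters searched (2.72%). Among promoters of genes that started in a boundary region of one library, the share was 3.71% and 3.10% for shLUC and 3.56% and 3.20% for shHNRNPU. A match is a string of letters and not evidence of a bound factor.

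First, the number and length of boundary regions were compared. Among the controls, shLUC replicate 1 held 631 regions and replicate 2 held 618. Of the knockdown libraries, shHNRNPU replicate 1 held 611 and replicate 2 held 453. Both shHNRNPU libraries held fewer than both shLUC libraries, but only replicate 2 lay far below them. Group means were 624.5 ± 9.19 regions for shLUC and 532 ± 112 for shHNRNPU (SD, n = 2), a difference of -92.5. The exact two-sided permutation test gave p = 0.333, the smallest that 2 libraries against 2 allow, and p = 0.667 after Benjamini-Hochberg adjustment over the 8 measures tested. Without shHNRNPU replicate 2 the difference was -13.5 regions, and without shHNRNPU replicate 1 it was -171.5. Since the labels do not say whether the repeats were separate cultures, p-values measure only the spread between these libraries.

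The regions covered 90.64 and 85.0 Mb for shLUC, against 89.08 and 54.0 Mb for shHNRNPU, between 1.88% and 3.15% of the 2875.36 Mb of autosomes. The covered length of shHNRNPU replicate 1 lay between the controls, and that of replicate 2 lay below them. The group difference was -16.28 Mb (exact permutation p = 0.667), and it turned to 1.26 Mb without shHNRNPU replicate 2 and was -33.82 Mb without shHNRNPU replicate 1. The median region was 120 kb in every library. The longest was 480 and 440 kb in shLUC and 520 and 280 kb in shHNRNPU.

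The length classes set shHNRNPU replicate 2 apart in the long regions. Regions of 200 kb or more numbered 160 and 133 in shLUC, 150 in shHNRNPU replicate 1 and 43 in shHNRNPU replicate 2. They made up 25.4%, 21.5%, 24.5% and 9.49% of the regions of each library, in the same order. The group difference of -50 long regions had an exact permutation p of 0.667, and leaving out shHNRNPU replicate 2 or 1 gave 3.5 or -103.5. The shortest class, 80 kb, numbered 192 and 212 in shLUC and 174 and 191 in shHNRNPU. These counts did not overlap between the groups. As shares of the regions of each library they were 30.4%, 34.3%, 28.5% and 42.2%, which did overlap, with shHNRNPU replicate 2 highest. Mean counts were 202 ± 14.1 and 182.5 ± 12.02 (SD, n = 2), which differ by -19.5 regions (exact permutation p = 0.333). The difference was -9.5 without shLUC replicate 2, -11 without shHNRNPU replicate 1 and -29.5 without shLUC replicate 1. Counts of 120 kb regions (157, 172, 170 and 141) and of 160 kb regions (122, 101, 117 and 78) overlapped between the groups, with an exact permutation p of 0.667 for each.

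**Figure D1:**
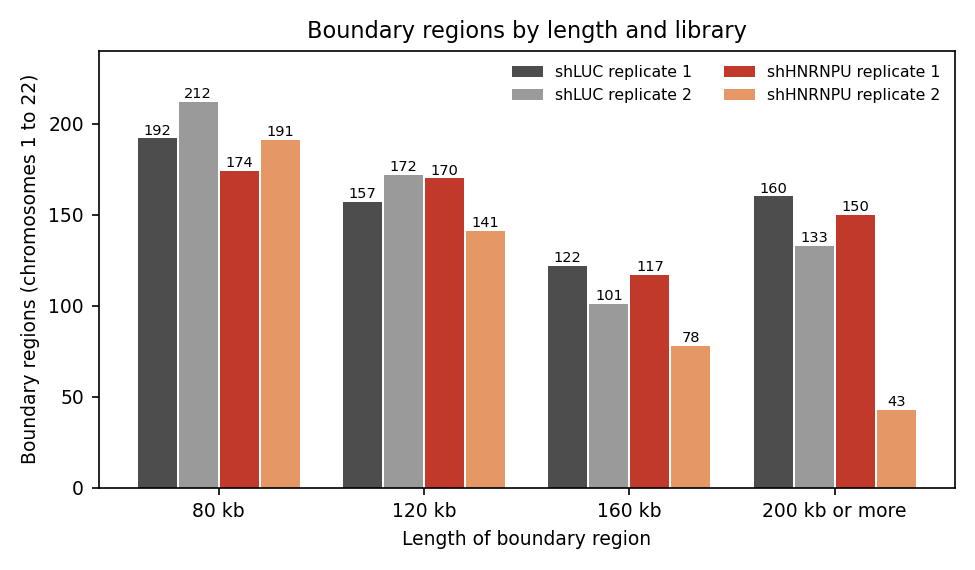
Number of boundary regions on chromosomes 1 to 22 (y axis) in each length class (x axis), with 1 bar per library and its count above it. The bar of shHNRNPU replicate 2 stands at 43 in the class of 200 kb or more, against 133 to 160 in the other 3 libraries.

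A region was not always a simple spacer between a pair of domains. A domain lay on both sides of 78.6% and 77.2% of the regions in shLUC and of 75.1% and 85.9% in shHNRNPU. Most of the others touched another boundary region, so that 127, 133, 146 and 62 rows belonged to runs of 2 or more rows. The longest run, in shHNRNPU replicate 1 at chr5:149600001-150520000, joined 5 rows over 920 kb. Only 6 to 10 rows of a library lay less than 120 kb from a gap of the same library, a gap being a stretch with no call. The domains beside a region had a median length of 600 to 620 kb, against 560 to 640 kb for all domains.

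Counting each run between 2 domains as 1 junction, boundary regions separated 553 of 3479 and 538 of 3466 neighbouring domains in shLUC, and 524 of 3471 and 418 of 2984 in shHNRNPU. These shares were 15.9% (95% Wilson interval 14.7 to 17.1), 15.5% (14.4 to 16.8), 15.1% (13.9 to 16.3) and 14.0% (12.8 to 15.3). The intervals cover counting error only and overlap each other. The difference of group means was -1.16 percentage points (15.7 ± 0.264 against 14.6 ± 0.770, SD, n = 2, exact permutation p = 0.333), and -0.612 without shHNRNPU replicate 2. shHNRNPU replicate 2 held fewer junctions of both kinds, with 2566 flush borders against 2926 to 2947 in the others and 418 separated junctions against 524 to 553. Its share of separated junctions was also the lowest of the 4 libraries, so regions were fewer in proportion as well. Sequencing depth is unknown for these files, and its part in these counts was not tested.

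Next, each region was looked up in the other 3 libraries, which gives 12 ordered pairs of libraries. At any region the other library could hold an overlapping boundary region, a flush border in the region or within 40 kb, a gap, or the interior of 1 domain. With borders up to 40 kb outside a region counted, most regions of one library met a flush border in another. Flush borders accounted for 54.0% to 60.3% of the regions over the 12 pairs, overlapping boundary regions for 18.5% to 34.2%, the interior of a domain for 10.97% to 25.8%, and gaps for at most 0.491%. For all windows of the same lengths along the autosomes, the ranges were 22.1% to 26.2% for a flush border, 3.31% to 5.22% for a boundary region and 63.3% to 69.4% for the interior. The shares of flush borders and of overlapping regions both lay above those of the windows, and the share of interiors lay below. A flush border also counted up to 40 kb outside the region, so its share and that of overlaps are not measured alike. Of 3960 lookups classed as flush borders, 654 had the border only outside the region. The majority held by flush borders depends on counting these.

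Recurrence did not follow the groups. Of the regions of shLUC replicate 1, 27.9% overlapped a region of shLUC replicate 2, 27.9% one of shHNRNPU replicate 1 and 18.5% one of shHNRNPU replicate 2. For shLUC replicate 2 the shares were 29.1% in shLUC replicate 1, 34.1% in shHNRNPU replicate 1 and 19.1% in shHNRNPU replicate 2. Regions of shHNRNPU replicate 1 overlapped one of its own partner in 20.3% of cases, and one of shLUC replicates 1 and 2 in 29.3% and 34.2%. The highest overlap was thus between shLUC replicate 2 and shHNRNPU replicate 1. For shHNRNPU replicate 2 the shares were 26.5% in its partner, and 26.0% and 26.7% in the shLUC libraries. Lookups in shHNRNPU replicate 2 gave the lowest overlap (18.5% to 20.3%) and the highest share of interiors (25.2% to 25.8%). Lookups in the other libraries gave 26.0% to 34.2% and 10.97% to 14.3%. Windows of 80 kb centred on flush borders shifted the same way. Of these windows, 37.8% to 38.1% were interior in shHNRNPU replicate 2 and 23.5% to 26.3% in the other libraries.

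**Figure D2:**
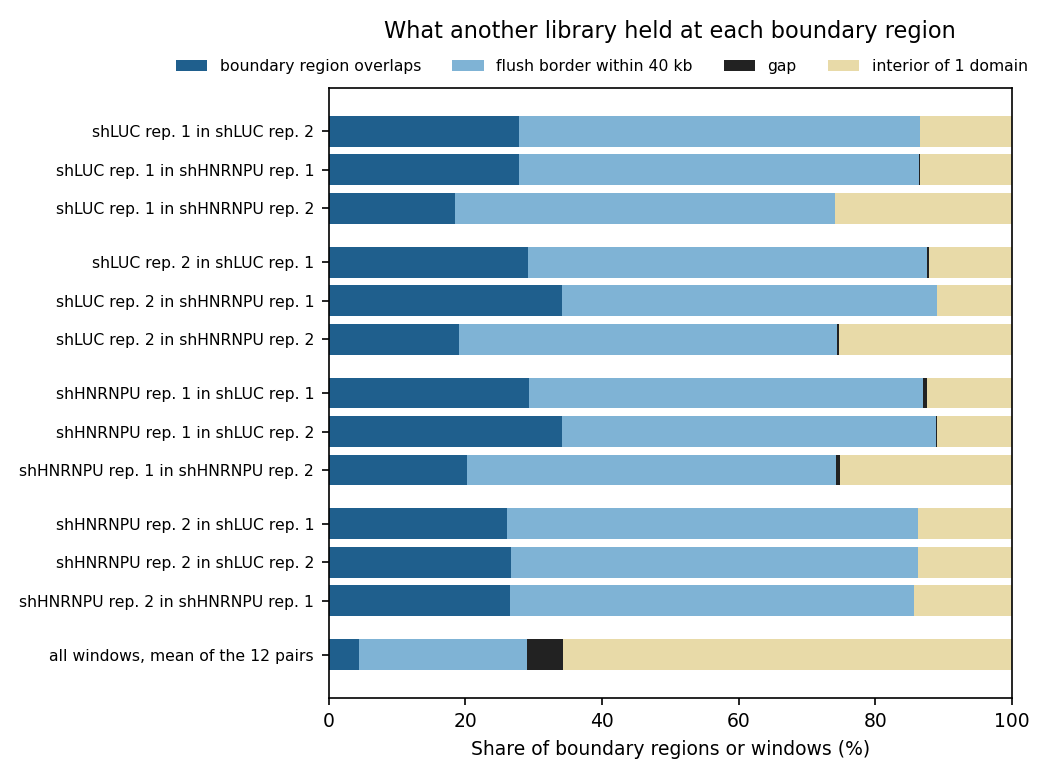
Each bar divides the boundary regions of one library (first name) by what a second library held at the same place, in percent; the last bar does so for all windows of the same lengths, as the mean over the 12 pairs. The 3 bars looked up in shHNRNPU replicate 2 have the shortest overlap segment and an interior segment of 25.2% to 25.8%.

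Regions that overlapped were seldom identical. The same start and end were found for 16.9% to 24.9% of the overlapping regions of a pair. Of the regions met by a flush border, the border lay on an edge of the region in 44.0% to 54.2%, inside it in 29.3% to 39.6%, and only in the bin outside in 11.1% to 20.2%. The other library closed the stretch with a domain of exactly the same ends for 2 to 16 regions per pair. Where a region fell in the interior, the host domain had a median length of 760 to 1520 kb and the region lay a median of 80 to 360 kb from its end. The host spanned both neighbouring domains in 15.1% to 46.1% of such cases that had a domain on each side. Of the 1118 interior lookups, 258 (23.1%) had a boundary region of the other library within 40 kb, so that part of this class lay beside a region of the other library.

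Longer regions recurred more often. Over all lookups, an overlapping boundary region was found for 18.3% of the 80 kb regions, 25.8% of the 120 kb regions, 30.2% of the 160 kb regions and 37.8% of those of 200 kb or more. The interior share ran the opposite way, at 23.8%, 14.7%, 12.3% and 9.12%. Background windows changed the same way with length. From 80 to 200 kb, the share of all windows that overlapped a boundary region went from between 2.46% and 3.93% to between 4.22% and 6.28%, depending on the library. The share in the interior went from between 71.1% and 75.2% to between 56.7% and 63.0%. How much of the difference between the classes comes from length alone was not tested. In each of the 12 pairs the longest class exceeded the 80 kb class in overlap and was below it in interiors. At equal length, 80 kb regions overlapped a boundary region of the other library in 11.5% to 25.9% of cases, against 7.70% to 11.7% for 80 kb windows centred on flush borders, and were above those windows in 12 of 12 pairs. They fell in the interior less often than those windows in 9 of 12 pairs.

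Long regions were then looked up one by one in shHNRNPU replicate 2. Of the regions of 200 kb or more, 35 of 160 from shLUC replicate 1, 26 of 133 from shLUC replicate 2 and 31 of 150 from shHNRNPU replicate 1 overlapped a boundary region there. These were 21.9%, 19.5% and 20.7%, against 38.1% to 52.6% between the other 3 libraries. Flush borders stood at 94, 80 and 95 of them (58.8%, 60.2% and 63.3%), and the interior of a domain at 31, 25 and 24. Where they overlapped, regions of shHNRNPU replicate 2 covered a mean of 57.4% to 64.1% of the long region, against 71.7% to 80.2% between the other 3. Between the other 3 libraries, flush borders stood at 44.0% to 56.2% of the long regions. In the other direction, 20, 14 and 24 of the 43 long regions of shHNRNPU replicate 2 overlapped a region of shLUC replicate 1, shLUC replicate 2 and shHNRNPU replicate 1.

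Joining overlapping regions of the 4 libraries gave 1561 loci. Of these, 1082 (69.3%) held a region in 1 library, 312 (20.0%) in 2, 144 (9.22%) in 3 and 23 (1.47%) in all 4. Among loci of 2 libraries, the pair of shLUC replicate 2 and shHNRNPU replicate 1 was again the most frequent, with 82 loci. The pair of shLUC libraries had 55 loci and the pair of shHNRNPU libraries 46. Of the regions found in a single library, 47.7% and 53.3% in shLUC and 51.7% and 63.9% in shHNRNPU were a flush border in all 3 others, and 19, 19, 16 and 23 were interior in all 3. Over all regions, 62.9%, 65.7%, 64.2% and 74.4% of the regions of each library had a boundary region or flush border in every other library.

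To ask whether any region belonged to one group, regions shared by both libraries of a group were looked up in the other group. The shLUC libraries shared 168 regions. None was interior in both shHNRNPU libraries, 0 of 168, which allows a share of up to 1.79% by 3 counts and 2.24% by the upper Wilson limit. As background, of all 1876 junctions shared by the shLUC libraries, regions and flush borders together, 7.30% were interior in both shHNRNPU libraries. Of these junctions 1708 were flush borders, which are points, while regions span 80 kb or more and interior shares fell with length. The 2 shares are therefore not like for like. Of the 168, 147 (87.5%, Wilson interval 81.6 to 91.7) had a region or a flush border in both shHNRNPU libraries. shHNRNPU replicate 1 held a region at 88, a flush border at 78 and an interior at 2, and shHNRNPU replicate 2 held a region at 47, a flush border at 102 and an interior at 19. Counting only regions, 55 of the 168 had none in either shHNRNPU library.

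The shHNRNPU libraries shared 117 regions, of which 2 (1.71%) were interior in both shLUC libraries, against 4.06% of all 1504 junctions they shared. Of these junctions 1387 were flush borders, so the same limit holds. The remainder of the 117 regions were met by a region or flush border in at least 1 shLUC library, and 111 (94.9%, Wilson interval 89.3 to 97.6) in both. One of the 2 was chr1:59960001-60040000, an 80 kb region in shHNRNPU replicate 2 that lay within a 200 kb region of replicate 1, which also held the start of C1orf87. shHNRNPU replicate 1 had a touching region of 120 kb at chr1:59840001-59960000, across the left border of the shLUC replicate 1 domain. The 80 kb stretch sat inside a domain at chr1:59880001-60840000 in shLUC replicate 1 and at chr1:59800001-61920000 in shLUC replicate 2. The other was chr22:36120001-36200000, with the same ends in both shHNRNPU libraries. Here shLUC replicate 1 held a domain at chr22:35640001-36480000. In shLUC replicate 2 a domain ended at the last base of the region and a boundary region of 80 kb followed directly, at chr22:36200001-36280000, so that the calls touched without overlapping. No protein-coding gene start in the table used lay in either 80 kb stretch. Both counts depended on having 2 libraries in each group. Regions of shLUC that were interior in shHNRNPU numbered 2 without shHNRNPU replicate 2, 20 without shHNRNPU replicate 1, 38 without shLUC replicate 1 and 41 without shLUC replicate 2. For the opposite direction the counts were 28, 34, 4 and 4 in that order.

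Regions that did recur in all 4 libraries were rare. At 20 of the 23 loci at least 40 kb lay in a region of every library, 2.00 Mb in all, with a median of 80 kb over the 23. The longest stretch in common, 200 kb, was at chr2:16520001-16760000, which spanned 240 kb in 3 libraries and 200 kb in shHNRNPU replicate 2. It held no gene start in the table used, which lacks some protein-coding genes. Only 3 regions had the same start and end in the 4 libraries. Of these, 2 lay less than 120 kb from a gap. The other was chr4:49600001-49680000, where a gap ended 120 kb to the left in each library, with no gene start in the table used. The domains on its left (chr4:49480001-49600000, 120 kb) and right (chr4:49680001-51760000, 2080 kb) also had the same ends in all 4 libraries. None of the 3 identical regions thus lay more than 120 kb from a gap. How well reads can be placed at these regions was not tested. At the 23 loci, the median summed length of regions was 160 and 200 kb in shLUC and 200 and 120 kb in shHNRNPU.

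Of the 23 loci, 18 held a gene start in the table used, and 27 protein-coding genes of that table started in a region of all 4 libraries. On chromosome 1 they included RAD54L, which acts in homologous recombination, LRRC41 and UQCRH, a subunit of respiratory complex III, whose divergent starts at 46303616 and 46303698 lie next to each other, and RPE65, the isomerase of the visual cycle. On chromosome 2, SLC40A1, the iron exporter ferroportin, was among them, and on chromosome 6 TFAP2D, an AP-2 transcription factor. A cluster on chromosome 14 held RNASE7 and RNASE8, secreted antimicrobial ribonucleases, with NDRG2 and ZNF219. On chromosome 17 DGKE, a diacylglycerol kinase, and TRIM25 were listed, and on chromosome 18 MBD2, a methyl-CpG-binding protein, and POLI, a translesion DNA polymerase. These 27 were 0.179% of the 15101 genes with a start.

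The longest regions of each library show how the calls differed. At chr1:18920001-19320000, shLUC replicate 1 held 1 region of 400 kb, with the starts of IFFO2, UBR4, EMC1, MRTO4, AKR7A3, AKR7A2 and SLC66A1. In shLUC replicate 2 there were 2 regions, of 160 and 80 kb, with a domain between them. shHNRNPU replicate 1 held 3 touching regions of 240, 120 and 80 kb. shHNRNPU replicate 2 held 1 region of 80 kb at chr1:19000001-19080000. Hence 40 kb of the stretch lay in a boundary region of all 4 libraries.

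The longest region of the series was 520 kb in shHNRNPU replicate 1, at chr14:23920001-24440000. It held 32 gene starts, among them PSME1 and PSME2, subunits of a proteasome activator, IRF9, a transcription factor of interferon signalling, TINF2, a telomere-binding protein of shelterin, and REC8, a meiotic cohesin subunit. shLUC replicate 2 had touching regions of 280 and 240 kb there, and shHNRNPU replicate 2 a region of 160 kb at chr14:24320001-24480000. shLUC replicate 1 had a flush border at its left part and an 80 kb region that began at its right edge. At chr1:39560001-40000000, which holds the starts of HEYL, NT5C1A, HPCAL4, OXCT2, BMP8B, MYCL and MFSD2A, shLUC replicate 2 had a region of 440 kb. shLUC replicate 1 had touching regions of 360 and 200 kb, shHNRNPU replicate 1 had touching regions of 320 and 240 kb, and shHNRNPU replicate 2 a single domain from 39480001 to 40440000.

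**Figure D3:**
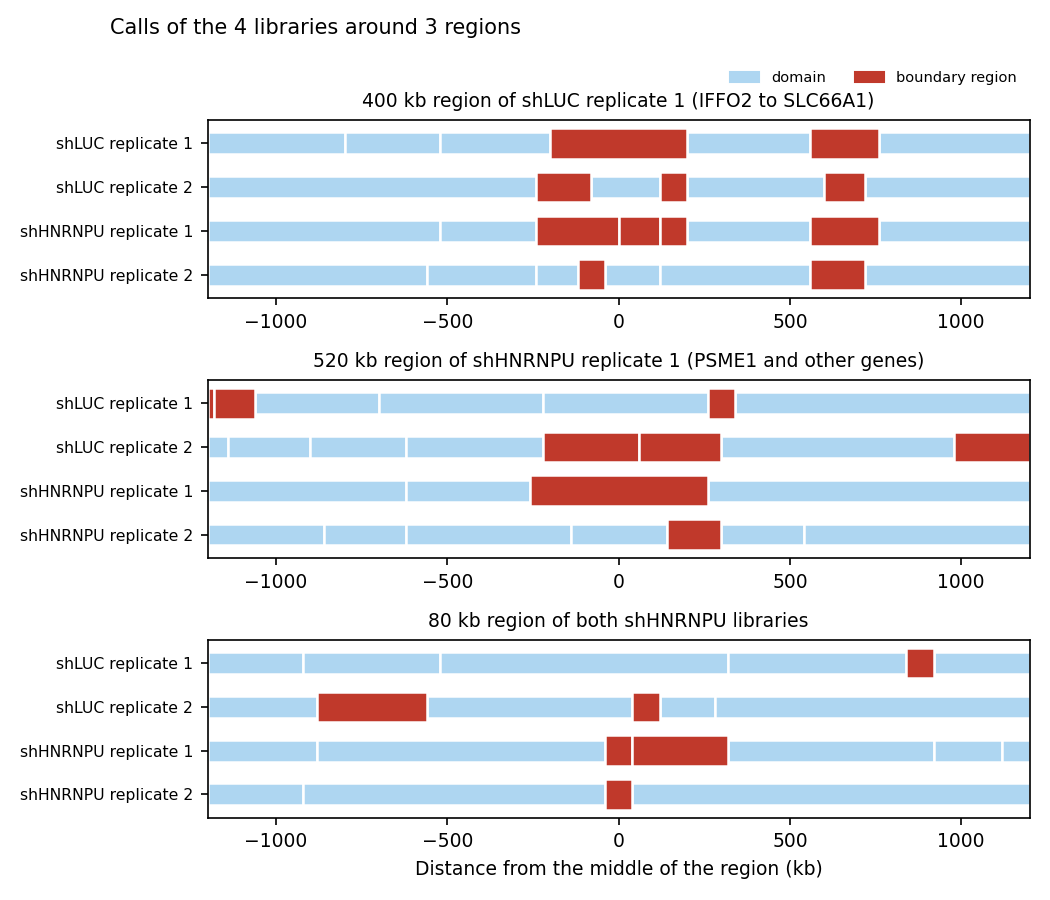
Domains (light blue) and boundary regions (red) of the 4 libraries along 1200 kb either side of the middle of 3 regions; the x axis is the distance from that middle in kb, and white lines part neighbouring calls. The top and middle panels show stretches divided differently in each library, and the bottom panel shows the 80 kb region of both shHNRNPU libraries with the region of shLUC replicate 2 directly to its right.

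The 480 kb region of shLUC replicate 1 at chr1:224960001-225440000 holds the start of LBR, the lamin B receptor of the inner nuclear membrane. shLUC replicate 2 had a region of 80 kb at its left end, and both shHNRNPU libraries had flush borders. The 440 kb region of shLUC replicate 2 at chr11:59160001-59600000, with DTX4 and a cluster of olfactory receptor genes, was met by flush borders in the other 3. shHNRNPU replicate 1 had a 400 kb region at chr14:21760001-22160000 with no protein-coding start in the table used, which overlapped regions of both shLUC libraries and met a flush border in shHNRNPU replicate 2. The longest regions of shHNRNPU replicate 2 were 280 kb at chr1:84960001-85240000, with MCOLN3, DNAI3 and SYDE2, and 240 kb at chr1:38840001-39080000, with RRAGC, MYCBP, RHBDL2 and AKIRIN1. Both overlapped regions of shLUC replicate 1 and shHNRNPU replicate 1 and met flush borders in shLUC replicate 2.

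Boundary regions held more gene starts than the inside of domains. On the 21 autosomes with starts in the table used, there were 9.56 and 11.8 protein-coding starts per Mb of region in shLUC and 11.6 and 8.38 in shHNRNPU. Domain interiors, 200 kb or more from a domain end, held 4.27, 4.31, 4.45 and 5.36 per Mb in the same order, and all sequence outside gaps 5.72 to 5.75. The ratio of regions to interiors was 2.24, 2.73, 2.62 and 1.56. Windows of 80 kb on flush borders held 9.47, 9.12, 9.17 and 8.18 starts per Mb, so regions exceeded flush borders by 1.01, 1.29, 1.27 and 1.03 times. The density of shHNRNPU replicate 2 was the lowest of the 4 in regions and in flush borders, and the highest in interiors. The group means for regions, 10.7 ± 1.58 and 10.0 ± 2.31 starts per Mb (SD, n = 2), differed by -0.662, less than the spread within either group (exact permutation p = 0.667). This difference turned to 0.970 without shHNRNPU replicate 2 and to 0.454 without shLUC replicate 2.

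**Figure D4:**
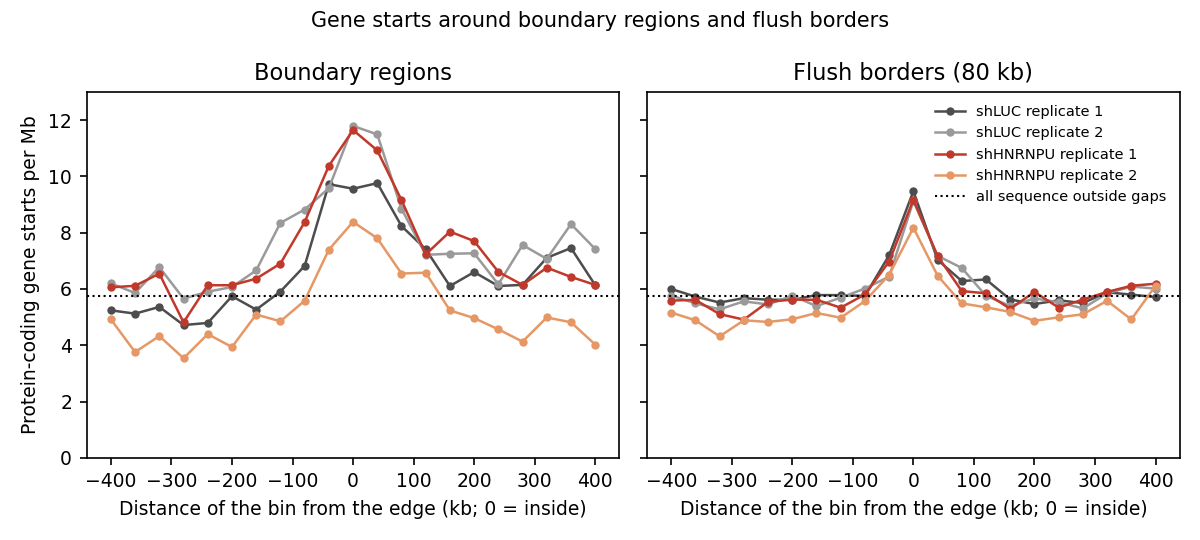
Protein-coding gene starts per Mb (y axis) inside boundary regions (left) or 80 kb windows on flush borders (right), at 0 kb, and in bins of 40 kb out to 400 kb on either side (x axis), with 1 line per library and the density of all sequence outside gaps as a dotted line. Densities in boundary regions stood at 8.38 to 11.8, those 400 kb to the left at 4.92 to 6.2, and those 400 kb to the right at 4.02 to 7.42.

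The density stayed raised in the bins next to a region. At 40 kb to the left and right it was 9.72 and 9.76 in shLUC replicate 1, 9.58 and 11.5 in shLUC replicate 2, 10.4 and 10.9 in shHNRNPU replicate 1, and 7.40 and 7.80 in shHNRNPU replicate 2. The first bins next to flush windows held 6.44 to 7.20, but these began 40 kb from the border and not at a domain end. The 40 kb on either side of a flush border form the window itself, which held 9.47, 9.12, 9.17 and 8.18. At least 1 start lay in 62.6% and 65.6% of regions in shLUC and in 65.9% and 49.7% in shHNRNPU. Among 80 kb regions the share was 50.3%, 52.4%, 50.6% and 35.5%, against 29.5% to 29.6% of all windows of that length. Among regions of 200 kb or more it was 80.5%, 81.5%, 82.4% and 72.5%, against 51.4% to 53.3% of windows of the same lengths. Regions that another library shared held 10.4, 12.9, 12.1 and 9.77 starts per Mb. Those met by flush borders or a gap but no region held 8.50, 10.1, 10.9 and 7.11, lower in 4 of 4 libraries. Regions that were interior in the other 3 libraries held 11.4, 10.5, 10.8 and 1.5 starts per Mb. All 4 values rest on few places, with 21, 21, 19 and 3 starts in 19, 19, 15 and 21 regions.

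Gene lists of known function were then placed on the regions. Starts were in the table used for 16 of 26 listed pluripotency genes, 18 of 25 germ-layer regulators, 21 of 25 chromosome folding genes, 19 of 21 ribonucleoprotein and matrix genes and 63 of 86 ribosomal protein genes, and the others were not analysed here. Over all genes, 835 and 969 of 15101 started in a region in shLUC and 1012 and 437 in shHNRNPU, and 14.8% did so in at least 1 library. Of 16 genes of the pluripotency network none started in a region of any library, which allows a share of up to 18.8% (3 counts of 16). Of 18 regulators of the germ layers, MIXL1, a regulator of mesendoderm, did so in shLUC replicate 2 and NEUROD1, a neuronal regulator, in shLUC replicate 1. Of 21 genes for chromosome folding 5 did so, each in 1 library. LBR and NIPBL, the cohesin loader, lay in regions of shLUC replicate 1, NCAPD3, a condensin II subunit, and TOP2A in regions of shLUC replicate 2, and TOP2B in a region of shHNRNPU replicate 2. TOP2A and TOP2B encode the DNA topoisomerases II.

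Among 19 genes for heterogeneous nuclear ribonucleoproteins and matrix proteins, 3 started in a region. HNRNPH1, a splicing regulator, did so in 3 libraries, with regions of 200, 200 and 80 kb in shLUC replicates 1 and 2 and shHNRNPU replicate 1, and its start was in a domain interior in shHNRNPU replicate 2. HNRNPD lay in a region of shHNRNPU replicate 1 and HNRNPA3 in one of shHNRNPU replicate 2, and each was at a flush border in the other 3 libraries. Of 63 ribosomal protein genes 8 did so, each in 1 library, such as RPL22 in shLUC replicate 1 and RPS27 in shHNRNPU replicate 1. No gene of these lists started in a region of all 4 libraries, or of both libraries of one group and neither of the other. Over all genes, 67 started in regions of both shLUC libraries alone and 31 in regions of both shHNRNPU libraries alone.

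Finally, the regions were spread unevenly over chromosomes. Chromosome 1 held 109 and 114 regions in shLUC and 100 and 79 in shHNRNPU, which is 4.38, 4.58, 4.02 and 3.17 per 10 Mb. The medians of the other autosomes were 1.95, 1.92, 2.01 and 1.36 per 10 Mb, and their highest values 2.97, 3.21, 2.71 and 2.57. Chromosome 19 had the lowest density in shLUC replicate 1 and in both shHNRNPU libraries, with 6, 3 and 2 regions. Of its boundary regions and flush borders together, regions made up 13.6% and 19.0% in shLUC and 6.38% and 8.33% in shHNRNPU. The medians of this share over the autosomes other than chromosome 1 were 16.25%, 16.3%, 15.8% and 14.3%. On chromosome 1 the share was 30.7%, 31.9%, 29.0% and 24.9%, and on chromosome 21 it was 18.2%, 33.3%, 18.2% and 26.1%. By this share chromosome 21 thus exceeded chromosome 1 in shLUC replicate 2 and shHNRNPU replicate 2, but not in the other libraries. Densities per 10 Mb used the full chromosome length, gaps included. Of the 43 to 160 long regions of a library, 40, 34, 40 and 8 lay on chromosome 1. Both shHNRNPU libraries had fewer regions than both shLUC libraries on 6 of 22 chromosomes (1, 4, 8, 18, 19 and 20) and more on 0. For the number of domains the same held on 10 of 22 (45.5%) and 1 of 22 (4.55%). shHNRNPU replicate 2 had the lowest count on 15 of 22 chromosomes.

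**Figure D5:**
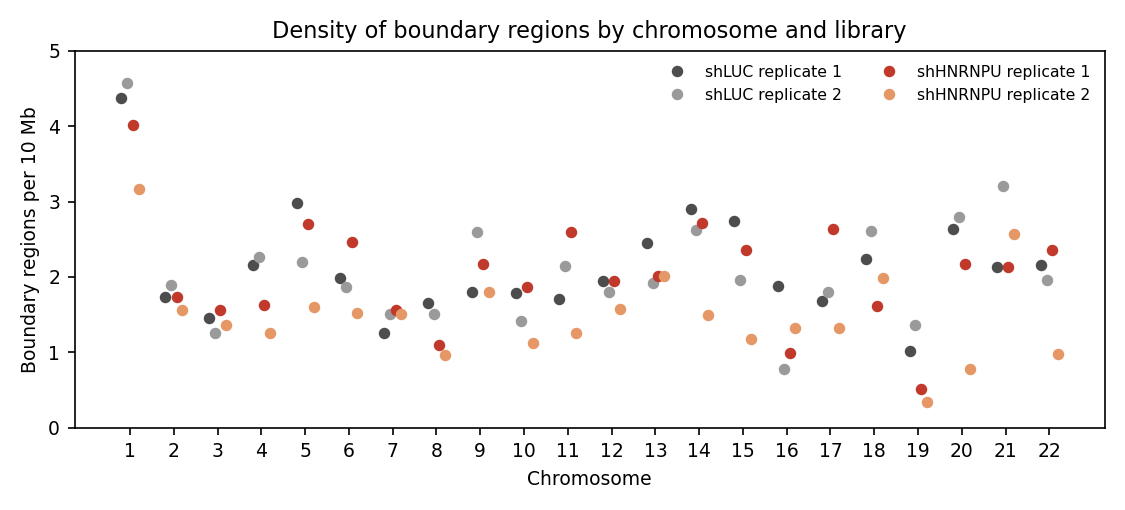
Boundary regions per 10 Mb (y axis) on each autosome (x axis), with 1 point per library. All 4 libraries have their highest value on chromosome 1, from 3.17 to 4.58 per 10 Mb.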

How the data were processed

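Hi-C was measured in 4 libraries, 2 per group, and titles gave the group and replicate number of each. As deposited, every library has 3 interval lists (12 files) that place domains, boundary regions and gaps, in base pairs and in multiples of 40 kb. They carry no score, no counts of reads and no contact maps. The submitters' processing notes name Bowtie2 and hg38, while the domain caller, the normalization and its settings are not given in the sources used here. Sequencing depth is therefore unknown, and its part in the number and length of regions was not tested.

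Intervals were read as bins, gaps of zero length were dropped (18, 19, 17 and 15 per library), and borders of touching domains were listed as flush borders. Each boundary region was classed in every other library as a boundary region (any overlap), a flush border within 40 kb, a gap, or the interior of 1 domain, in that order of precedence. On simulated rows with known answers, 100% of 404 were classed as planted. Groups were compared by a two-sided exact permutation test of library values, with Benjamini-Hochberg adjustment over the 8 measures, and shares carry 95% Wilson intervals. Gene starts were taken from RefSeq promoters (GRCh38.p14), the outermost per protein-coding gene. They matched 15101 of 18411 genes (82.0%) on 21 autosomes, and chromosome 8 was not used here for gene starts. The 2 promoters printed are those of genes in a region of all 4 libraries that held the core, chosen after their values were seen. Promoters held a core match when either strand had the letters. Regions named in the text were the longest with the same ends in all libraries, those particular to 1 group, and the 2 longest of each library, all at least 120 kb from any gap. Genes named were those of the lists, those starting in a region of all 4 libraries (examples are given, and 1 item is not reported here), and those starting in named regions. The members, lists and rules were chosen with earlier results of these data known. Alternatives changed the chromosomes, the distance from gaps, the shortest region, the overlap and flush distances, the libraries and the pairing. Leaving out chromosome 1 and counting gene midpoints were added after seeing the data. Python 3.11.15, numpy 2.4.6, pandas 2.3.3, scipy 1.17.1 and matplotlib 3.10.9 were used.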

Additional observations from a re-analysis of the deposited data

How the results depend on the processing

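Of 106 values recomputed under alternatives, 6 reversed their sign and 15 moved (counts by over 1.5 times, shares by over 1 SD of the 12 pairs). The other 85 did neither, which for a group difference means only that its sign stayed. Without shHNRNPU replicate 2 the group differences (shHNRNPU minus shLUC) reversed for total length (1.26 Mb), for regions of 120 kb (5.5), 160 kb (5.5) and 200 kb or more (3.5), and for gene starts (0.970 per Mb), which also reversed without shLUC replicate 2 (0.454). Leaving out 1 library at a time, which leaves 1 library in a group (exact permutation p from 0.333, the smallest possible, to 1), the differences ranged from -171.5 to -13.5 regions, from -33.82 to 1.26 Mb, from -1.70 to -0.612 percentage points of junctions, from -29.5 to -9.5, -23.5 to 5.5, -33.5 to 5.5 and -103.5 to 3.5 regions of the 4 length classes, and from -2.29 to 0.970 starts per Mb. Requiring the same start and end, overlap averaged 5.47% over the 12 pairs, and with flush borders only in the region or on its edge the interior share averaged 25.2%. Regions of shLUC absent from shHNRNPU numbered 55 when any flush border counted as absent, and 2 to 41 without 1 library. Regions of shHNRNPU absent from shLUC numbered 1 with flush borders within 80 kb, 1 when at least 50% of the longer row had to be shared, 0 among regions of at least 120 kb, 47 when any flush border counted as absent, and 4 to 34 without 1 library. With the replicate number as a block (replicate block), the differences were unchanged (-92.5 regions, -16.28 Mb), and the exact sign-flip test of 2 pairs cannot go below p = 0.5. The deviations of same-numbered libraries correlated at 0.119 over 22 chromosomes, and nothing in the labels says that a number marks a shared batch. Without chromosome 1, an alternative added after seeing the data, the differences were -70.5 regions and -11.7 Mb. GC content, CTCF-like core matches and HindIII sites of the regions were not run, as no genome sequence was used here.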
